A study of Mus musculus with 3 samples.

Results

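The 34 genes described here encode the glucose and lactate transporters, the enzymes of glycolysis, the lactate dehydrogenases, the mitochondrial pyruvate carrier, subunits of the pyruvate dehydrogenase complex with 3 of its kinases, and 5 enzymes of the pentose phosphate pathway. They were chosen by name and were found in 35 of the 32285 rows of the count tables, since Aldoa has 2 rows, which were summed. Their values were taken in barcodes with at least 500 genes and under 10% of unique molecular identifiers (UMIs, counts of captured RNA molecules) from the mitochondrial genome. The data are single-cell RNA counts of whole thymus, the organ in which T cells form, from female mice aged 4 weeks, with 1 library per genotype. The first group carries an AD allele of p53 over a null allele (p53 AD/-). The labels do not spell out AD, and the title of the series refers to dimers of p53. The second group is labelled p53-/-, with both alleles null by that label. The third is labelled p53+/- and is named WT in the design text, so all 3 groups carry an altered p53 genotype. The background strain is labelled 50% BALB/C - 50% C57BL7 for p53 AD/-, 50% BALB/C - 50% C57BL8 for p53-/- and 50% BALB/C - 50% C57BL6 for p53+/-. With 1 library per genotype no test was possible, no p-value is given, and the animal, the library and the genotype cannot be told apart. Ranges in brackets after a value are exact 95% intervals, which cover counting error only.

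Glycolysis splits glucose into pyruvate, which is either reduced to lactate by lactate dehydrogenase or carried into mitochondria and oxidised by the pyruvate dehydrogenase complex. The pentose phosphate pathway branches off the same sugar phosphates and supplies NADPH and the ribose of nucleotides. In the thymus, double-negative (DN) precursors and the cycling cells that follow them are known for a high use of glucose, while small resting double-positive (DP) cells, which carry CD4 and CD8 and rearrange the T cell receptor alpha locus, are known as metabolically quiet until positive selection moves them towards the single-positive (SP) state.

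Filtering left 6171, 9543 and 8150 cells in the p53 AD/-, p53-/- and p53+/- libraries, with 2484, 3062 and 3238.5 median UMIs. All barcodes together held 27638820 UMIs in the p53 AD/- library, 54164425 in the p53-/- library and 46498800 in the p53+/- library. Cells were grouped without the 34 genes and named from fixed markers into 5 stages: DN-like, cycling, quiescent DP-like, selected DP to early SP-like (called selected here) and mature SP-like. Outside these stages were 120, 236 and 134 cells in the p53 AD/-, p53-/- and p53+/- libraries. Pairs of libraries shared 15 to 29 cell barcodes. The smallest was the DN-like stage with 53, 145 and 93 cells in the p53 AD/-, p53-/- and p53+/- libraries, and the most numerous was the quiescent DP-like stage with 3221, 4554 and 4307. The p53 AD/- cells of the quiescent DP-like stage lay mostly in another cluster (cluster 4, 78.5% of them) than those of the p53-/- and p53+/- libraries (cluster 2, 45.7% and 29.7%). Malat1, a nuclear RNA, made up a median of 3.64, 7.34 and 6.06% of UMIs in quiescent DP-like cells in the p53 AD/-, p53-/- and p53+/- libraries, and 20.3, 1.41 and 1.76% of these cells held under 1% Malat1. The 7 erythroid markers in the same stage summed to 13.6 CPM (counts scaled to the summed UMIs of the stage) in the p53 AD/- library, 101.5 CPM in the p53-/- library and 439.8 CPM in the p53+/- library, with 3, 2 and 2 of the 7 at 0. The 7 granulocyte markers there summed to 5.44, 48.6 and 36.8 CPM in the p53 AD/-, p53-/- and p53+/- libraries, with 3, 1 and 0 at 0. The 10 markers of innate-like T or NK cells summed to 24.3, 61.03 and 53.05 CPM in the p53 AD/-, p53-/- and p53+/- libraries, with 4, 1 and 3 at 0. The 9 B cell markers summed to 671, 926 and 851 CPM and the 9 thymic epithelial markers to 29.5, 43.2 and 38 CPM in the p53 AD/-, p53-/- and p53+/- libraries. The 9 mesenchymal or endothelial markers summed to 57.99, 85.5 and 80.7 CPM in the same order. Markers of macrophages or monocytes and of dendritic cells ran the other way. The 9 macrophage or monocyte markers summed to 123.1, 110.7 and 72.6 CPM in the p53 AD/-, p53-/- and p53+/- libraries, with 2, 0 and 1 at 0. The 11 dendritic markers summed to 329, 259.5 and 227 CPM in the p53 AD/-, p53-/- and p53+/- libraries, with 1, 1 and 0 at 0. The DN-like stage was mixed as well. Its 9 DN markers summed to 1050, 1705 and 1549 CPM and its 8 gamma-delta T markers to 1323, 1239 and 1077 CPM in the p53 AD/-, p53-/- and p53+/- libraries. The 16 cycling markers there summed to 2296, 2651 and 2111 CPM and the 11 quiescent DP markers to 2089, 2531 and 2542 CPM in the same order. DN-like values are thus not those of DN precursors alone. The part of all these markers in the results was not tested. Trp53, the gene altered in these mice, had 90.9, 74.9 and 86.1 CPM in the p53 AD/-, p53-/- and p53+/- libraries over all filtered cells. The deleted part and the sequenced end of the transcripts were not given in the sources used here, so this level does not check the labels.

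The 34 genes together took a larger share of UMIs in the p53 AD/- library than in either other library at every stage. Their summed level in the p53 AD/-, p53-/- and p53+/- libraries was 5039, 3444 and 3067 CPM in DN-like cells, 5695, 4469 and 4032 CPM in cycling cells and 4768, 3289 and 3024 CPM in quiescent DP-like cells. The sum in the p53 AD/-, p53-/- and p53+/- libraries was 5522, 4079.5 and 3725 CPM in selected cells and 4976, 3459 and 3078 CPM in mature SP-like cells. Within each library the sum was lowest in quiescent DP-like cells and highest in cycling cells. The enzymes from Gapdh to Pkm, here called lower glycolysis, summed to 3211, 2290.0 and 2018 CPM in cycling cells and 1749.8, 1054 and 926 CPM in quiescent DP-like cells in the p53 AD/-, p53-/- and p53+/- libraries. Lactate dehydrogenase had the opposite order, with 785, 606 and 549.8 CPM in cycling cells and 1322, 811 and 769 CPM in quiescent DP-like cells in the p53 AD/-, p53-/- and p53+/- libraries. Levels are UMIs and were not divided by transcript length, so they are compared between stages and libraries and not between genes. Per cell, cycling cells held 77.7, 65.01 and 68.2 UMIs of the 34 genes in the p53 AD/-, p53-/- and p53+/- libraries, and quiescent DP-like cells held 10.3, 8.37 and 8.998. The median totals were 10957, 11297 and 13403 UMIs in cycling cells and 1973, 2292 and 2730.0 UMIs in quiescent DP-like cells in the p53 AD/-, p53-/- and p53+/- libraries.

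**Figure D1:**
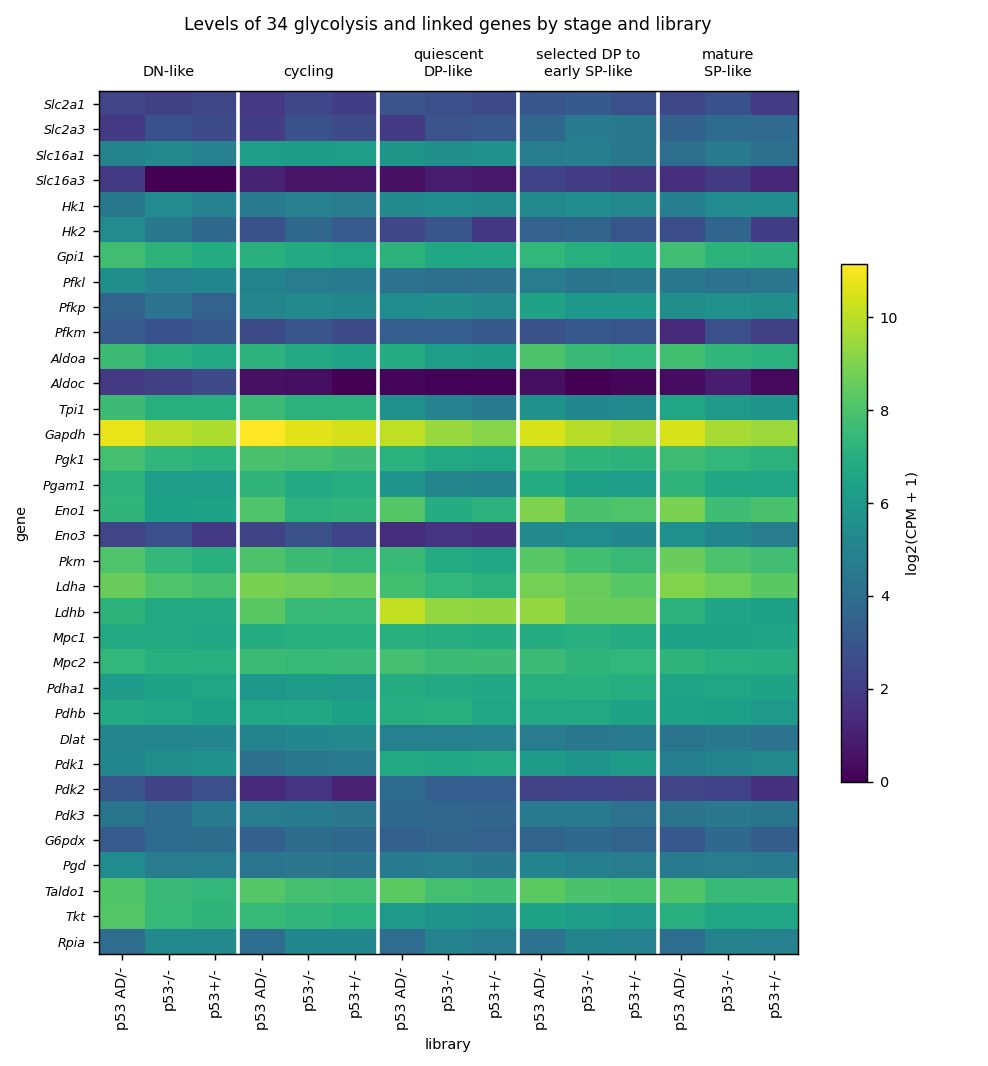
Levels of the 34 genes on a colour scale of log2(CPM + 1), with genes as rows in pathway order and the p53 AD/-, p53-/- and p53+/- libraries side by side within each of 5 stages. The Ldhb row is brightest in quiescent DP-like cells and the Tpi1, Gapdh and Pgam1 rows in DN-like or cycling cells.

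Glucose entry genes were sparse, and the share of the transporters among them shifted with stage. Slc2a1 and Slc2a3 encode facilitative glucose transporters. Levels of Slc2a3 in the p53 AD/-, p53-/- and p53+/- libraries were 2.71, 6.09 and 4.84 CPM in DN-like, 3.03, 5.70 and 4.76 in cycling and 2.72, 6.21 and 7.18 in quiescent DP-like cells in the p53 AD/-, p53-/- and p53+/- libraries. Slc2a3 had 12.3, 22.2 and 21.7 CPM in selected and 10.1, 14.1 and 13.8 in mature SP-like cells. Slc2a3 was thus higher in selected than in quiescent DP-like cells, with log2 ratios of 2.18, 1.84 and 1.59 in the p53 AD/-, p53-/- and p53+/- libraries. Slc2a1 stood at 4.06, 3.32 and 4.15 CPM in DN-like, 2.63, 4.13 and 3.22 in cycling and 6.30, 5.52 and 4.99 in quiescent DP-like cells in the p53 AD/-, p53-/- and p53+/- libraries. Slc2a1 had 7.004, 7.89 and 5.68 CPM in selected and 4.27, 6.02 and 2.89 in mature SP-like cells in the p53 AD/-, p53-/- and p53+/- libraries. The Slc2a3 share of the UMIs of the pair was 30.2%, 52.9% and 58.97% in quiescent DP-like and 63.8%, 73.8% and 79.2% in selected cells in the p53 AD/-, p53-/- and p53+/- libraries. Slc2a3 had 19, 72 and 92 UMIs in quiescent DP-like cells in the p53 AD/-, p53-/- and p53+/- libraries. Its log2 ratio there for the p53 AD/- library was -1.40 (-2.20 to -0.68) over p53+/- and -1.19 (-2.00 to -0.45) over p53-/-. In selected cells the same ratios were -0.81 (-1.24 to -0.40) and -0.85 (-1.27 to -0.44). The p53 AD/- library was the lowest at both stages, by more than counting error.

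Slc16a1 and Slc16a3 encode transporters that move lactate and pyruvate with a proton across the cell membrane. Slc16a1 was highest in cycling cells of each library, with 31.1, 36.5 and 27.7 CPM in DN-like, 75.1, 69 and 72.1 in cycling and 58.1, 44.7 and 48.6 in quiescent DP-like cells in the p53 AD/-, p53-/- and p53+/- libraries. Slc16a1 had 25.8, 26.1 and 20.9 CPM in selected and 15.2, 22.7 and 16.03 in mature SP-like cells in the p53 AD/-, p53-/- and p53+/- libraries. Between libraries in quiescent DP-like cells its log2 ratios were 0.26 (0.07 to 0.44) when p53 AD/- was divided by p53+/- and -0.12 (-0.29 to 0.05) when p53-/- was. Slc16a3 was near the floor of 3 UMIs in many sums, with 2, 0 and 0 UMIs in DN-like, 11, 12 and 9 in cycling and 3, 9 and 8 in quiescent DP-like cells in the p53 AD/-, p53-/- and p53+/- libraries. Slc16a3 had 20, 24 and 21 UMIs in selected and 6, 17 and 6 in mature SP-like cells in the p53 AD/-, p53-/- and p53+/- libraries. Its highest level in any cluster was 29.8 CPM in p53 AD/- cells of cluster 13, 20.7 CPM in p53-/- cells of the dendritic-like cluster 15 and 14.95 CPM in p53+/- cells of cluster 13. No fold over quiescent DP-like cells is given, since that level rests on 3, 9 and 8 UMIs in the p53 AD/-, p53-/- and p53+/- libraries.

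Hexokinase, which traps glucose as its phosphate, held a larger share of Hk2 UMIs in DN-like and cycling cells than in quiescent DP-like cells, where Hk1 took most UMIs. Hk1 stood at 21.6, 40.97 and 29.1 CPM in DN-like, 22.4, 27.7 and 24.6 in cycling and 37.9, 43.5 and 39.2 in quiescent DP-like cells in the p53 AD/-, p53-/- and p53+/- libraries. Hk1 had 38.2, 43.7 and 36.98 CPM in selected and 27.4, 41.2 and 42.7 in mature SP-like cells in the p53 AD/-, p53-/- and p53+/- libraries. Hk2 stood at 40.6, 21.6 and 13.1 CPM in DN-like, 5.86, 12.7 and 8.28 in cycling and 4.15, 6.73 and 2.50 in quiescent DP-like cells in the p53 AD/-, p53-/- and p53+/- libraries. Hk2 had 10.5, 11.4 and 6.95 CPM in selected and 5.49, 11.6 and 3.12 in mature SP-like cells in the p53 AD/-, p53-/- and p53+/- libraries. The Hk2 share of hexokinase UMIs was 65.2%, 34.5% and 31.1% in DN-like cells, 20.7%, 31.5% and 25.2% in cycling cells and 9.86%, 13.4% and 5.98% in quiescent DP-like cells in the p53 AD/-, p53-/- and p53+/- libraries. The p53 AD/- value in DN-like cells rests on 46 UMIs in 53 cells (49.8 to 78.7%).

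Hk2 was past a log2 ratio of 0.5 in the p53-/- over the p53+/- library at each of the 5 stages. The ratio was 0.72 (-0.11 to 1.59) in DN-like cells, 0.62 (0.33 to 0.92) in cycling cells and 1.43 (0.82 to 2.07) in quiescent DP-like cells. The ratio was 0.71 (0.23 to 1.21) in selected cells and 1.89 (1.05 to 2.83) in mature SP-like cells. The interval left out 0 at 4 of the 5 stages, and DN-like cells were the exception. In the p53 AD/- library Hk2 had no such constant direction, with log2 ratios over p53-/- of 0.91 (0.17 to 1.63) in DN-like cells and -1.12 (-1.55 to -0.71) in cycling cells. Among clusters outside quiescent DP-like cells Hk2 was highest in a dendritic-like cluster, with 73.4, 80.1 and 47.8 CPM in the p53 AD/-, p53-/- and p53+/- libraries. In quiescent DP-like cells the 11 dendritic markers summed to 329, 259.5 and 227 CPM in the p53 AD/-, p53-/- and p53+/- libraries, with 1, 1 and 0 of them at 0, and their part in the Hk2 levels was not tested.

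Gpi1, the isomerase that turns glucose phosphate into fructose phosphate, had 212, 149 and 117 CPM in DN-like, 132, 112 and 95.7 in cycling and 147, 100.2 and 94.1 in quiescent DP-like cells in the p53 AD/-, p53-/- and p53+/- libraries. Gpi1 had 166, 125 and 115 CPM in selected and 210.3, 145 and 136 in mature SP-like cells in the p53 AD/-, p53-/- and p53+/- libraries. Among quiescent DP-like cells it was higher in the p53 AD/- library than in the p53+/- library by a log2 ratio of 0.64 (0.52 to 0.76) and than in the p53-/- library by 0.55 (0.43 to 0.67). The difference was large in cluster 4, with 159, 98.8 and 92.1 CPM in the p53 AD/-, p53-/- and p53+/- libraries, while in cluster 2, which holds 84 of the p53 AD/- cells, the levels were 103, 106 and 104 CPM.

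Phosphofructokinase catalyses the committed step of glycolysis and is built from the products of Pfkl, Pfkp and Pfkm. From DN-like to selected cells its UMIs turned from Pfkl towards Pfkp. The Pfkl share of the UMIs of the 3 genes was 70.8%, 55.2% and 65.3% in DN-like cells, 44.8%, 34.9% and 38.2% in cycling cells and 25.9%, 22.1% and 26.5% in quiescent DP-like cells in the p53 AD/-, p53-/- and p53+/- libraries. Pfkp held 16.7%, 33.3% and 20% in DN-like cells and 73.8%, 70.01% and 68.1% in selected cells in the p53 AD/-, p53-/- and p53+/- libraries. All 3 libraries had this order. As levels, Pfkp stood at 10.8, 17.7 and 10.4 CPM in DN-like, 32.9, 38.7 and 33.95 in cycling and 41.8, 45.3 and 37.1 in quiescent DP-like cells in the p53 AD/-, p53-/- and p53+/- libraries. Pfkp had 84.6, 60.9 and 59.8 CPM in selected and 44.5, 48.5 and 44.98 in mature SP-like cells in the p53 AD/-, p53-/- and p53+/- libraries. Pfkl stood at 45.99, 29.3 and 33.9 CPM in DN-like, 30.8, 24.3 and 24 in cycling and 17.8, 15.4 and 16.1 in quiescent DP-like cells in the p53 AD/-, p53-/- and p53+/- libraries. Pfkl had 24.3, 18.8 and 21.1 CPM in selected and 21.3, 18.2 and 20.3 in mature SP-like cells in the p53 AD/-, p53-/- and p53+/- libraries. Pfkm, the muscle form, was sparse, with 8.12, 6.09 and 7.61 CPM in DN-like, 5.05, 6.68 and 4.94 in cycling and 9.02, 8.98 and 7.65 in quiescent DP-like cells in the p53 AD/-, p53-/- and p53+/- libraries. Pfkm had 5.71, 7.28 and 6.95 CPM in selected and 1.52, 5.55 and 3.34 in mature SP-like cells in the p53 AD/-, p53-/- and p53+/- libraries. The log2 ratios of the 3 genes between libraries in quiescent DP-like cells lay between -0.12 and 0.29.

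Aldolase, which cleaves fructose bisphosphate, was counted almost wholly as Aldoa. Aldoc, known as a brain form, had 2, 6 and 7 UMIs in DN-like, 4, 8 and 0 in cycling and 1, 1 and 1 in quiescent DP-like cells in the p53 AD/-, p53-/- and p53+/- libraries. Aldoc had 2, 0 and 1 UMIs in selected and 1, 5 and 1 in mature SP-like cells in the p53 AD/-, p53-/- and p53+/- libraries. Aldoa stood at 197, 127 and 107 CPM in DN-like, 143, 106 and 91.4 in cycling and 119.8, 74.7 and 67.3 in quiescent DP-like cells in the p53 AD/-, p53-/- and p53+/- libraries. Aldoa had 260.4, 179.7 and 169 CPM in selected and 217, 159.8 and 140.1 in mature SP-like cells in the p53 AD/-, p53-/- and p53+/- libraries. It was lowest in quiescent DP-like cells of each library and higher in selected cells, by log2 ratios of 1.12, 1.27 and 1.32 in the p53 AD/-, p53-/- and p53+/- libraries. Tpi1, which interconverts the triose phosphates, had 197, 125 and 125 CPM in DN-like, 193, 143 and 143 in cycling and 46.97, 30.2 and 23.9 in quiescent DP-like cells in the p53 AD/-, p53-/- and p53+/- libraries. Tpi1 had 50.1, 36.2 and 38.9 CPM in selected and 92.4, 61.97 and 54.3 in mature SP-like cells in the p53 AD/-, p53-/- and p53+/- libraries. Tpi1 was higher in cycling than in quiescent DP-like cells by log2 ratios of 2.04, 2.24 and 2.58 in the p53 AD/-, p53-/- and p53+/- libraries, while its ratios of selected over quiescent DP-like cells were 0.09, 0.26 and 0.71. The p53 AD/- over p53+/- log2 ratios in quiescent DP-like cells were 0.83 (0.69 to 0.97) for Aldoa and 0.98 (0.75 to 1.21) for Tpi1.

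Gapdh, which oxidises triose phosphate and makes NADH, had 1756, 1055 and 889 CPM in DN-like, 2275, 1604 and 1368 in cycling and 1076, 680.4 and 558 in quiescent DP-like cells in the p53 AD/-, p53-/- and p53+/- libraries. Gapdh had 1432, 999.5 and 829 CPM in selected and 1445, 837 and 706 in mature SP-like cells in the p53 AD/-, p53-/- and p53+/- libraries. The p53 AD/- library was higher than both others at every stage, and the log2 ratio over p53+/- lay between 0.73 and 1.03. Pgk1, which makes the first ATP of the pathway, stood at 223, 162 and 136 CPM in DN-like, 244, 229 and 199.9 in cycling and 139.8, 106 and 92.9 in quiescent DP-like cells in the p53 AD/-, p53-/- and p53+/- libraries. Pgk1 had 204, 156 and 147 CPM in selected and 208, 166 and 141 in mature SP-like cells in the p53 AD/-, p53-/- and p53+/- libraries. Pgam1, the mutase between Pgk1 and enolase, had 141, 72.5 and 74.05 CPM in DN-like, 156, 111 and 121 in cycling and 55.8, 33.1 and 30.5 in quiescent DP-like cells in the p53 AD/-, p53-/- and p53+/- libraries. Pgam1 had 117, 76.5 and 76.2 CPM in selected and 151, 98.6 and 95.1 in mature SP-like cells in the p53 AD/-, p53-/- and p53+/- libraries. Gapdh, Pgk1 and Pgam1 were each higher in cycling than in quiescent DP-like cells, and for Pgam1 the log2 ratios were 1.48, 1.75 and 1.99 in the p53 AD/-, p53-/- and p53+/- libraries. For p53 AD/- over p53+/- quiescent DP-like cells the log2 ratios were 0.95 (0.90 to 0.99) for Gapdh, 0.59 (0.47 to 0.71) for Pgk1 and 0.87 (0.67 to 1.08) for Pgam1. Gapdh and several other glycolytic genes have near-identical pseudogene copies in the mouse, and how reads shared with copies were counted was not given in the sources used here. Pkm, the pyruvate kinase of these cells, was lowest in quiescent DP-like cells too, with 266, 164 and 134 CPM in DN-like, 265, 196 and 169.7 in cycling and 179.8, 115 and 101 in quiescent DP-like cells in the p53 AD/-, p53-/- and p53+/- libraries. Pkm had 302, 218 and 187 CPM in selected and 383, 257 and 213 in mature SP-like cells in the p53 AD/-, p53-/- and p53+/- libraries. Its p53 AD/- over p53+/- ratio in quiescent DP-like cells was 0.84 (0.72 to 0.95).

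Enolase makes phosphoenolpyruvate, and Eno1 is its common form while Eno3 is known as the muscle form. Eno1 levels were 156, 80.3 and 87.9 CPM in DN-like, 269, 144 and 156 in cycling and 297, 117 and 142 in quiescent DP-like cells in the p53 AD/-, p53-/- and p53+/- libraries. Eno1 had 516, 243 and 273 CPM in selected and 486, 205 and 248 in mature SP-like cells in the p53 AD/-, p53-/- and p53+/- libraries. Eno1 was the member with the largest p53 AD/- over p53-/- ratio among those past 0.5 in quiescent DP-like cells, 1.34 (1.24 to 1.44), and its ratio over p53+/- was 1.07 (0.98 to 1.16). The log2 ratio of p53-/- over p53+/- cells in this stage was -0.27 (-0.38 to -0.17), so the p53-/- library was the lowest of the 3. A near-identical copy with its own row, Eno1b, had 36, 25 and 47 UMIs there in the p53 AD/-, p53-/- and p53+/- libraries, so reads of Eno1 may be split and its value is uncertain to that extent. Eno3 was counted mostly in selected and mature cells, with 4.06, 5.54 and 2.77 CPM in DN-like, 3.84, 5.83 and 3.69 in cycling and 1.72, 2.33 and 1.79 in quiescent DP-like cells in the p53 AD/-, p53-/- and p53+/- libraries. Eno3 had 36.7, 42.1 and 35.4 CPM in selected and 47.2, 33.3 and 25.4 in mature SP-like cells in the p53 AD/-, p53-/- and p53+/- libraries. Within the selected stage it was concentrated in cluster 13, whose leading genes include Bcl2l11, Gadd45b, Nr4a1 and Nfkb1, with 192, 204 and 213 CPM in the p53 AD/-, p53-/- and p53+/- libraries. These levels were 112, 87.7 and 119 times the quiescent DP-like level in the p53 AD/-, p53-/- and p53+/- libraries. In cluster 13 Eno3 held 26.5%, 45.1% and 41.7% of the enolase UMIs in the p53 AD/-, p53-/- and p53+/- libraries, against 0.575%, 1.95% and 1.25% in quiescent DP-like cells. Eno1 in that cluster had 533, 248 and 298 CPM in the p53 AD/-, p53-/- and p53+/- libraries. The quiescent DP-like Eno3 counts of 12, 27 and 23 UMIs in the p53 AD/-, p53-/- and p53+/- libraries are few, and the part of free RNA in them was not tested.

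The promoters of the 2 enolase genes are shown because the isozymes part at selection. Each window holds 300 bases around the RefSeq start on GRCm38.p6 and runs 5′ to 3′ on the gene's strand. Both lie on the plus strand, Eno3 at chr11:70656926-70657225 and Eno1 at chr4:150236458-150236757. Capitals would mark the letters ACGTG on either strand, a form of the core of elements bound by hypoxia-inducible factor. Neither window holds ACGTG, and other forms of that core were not searched for.
Eno3: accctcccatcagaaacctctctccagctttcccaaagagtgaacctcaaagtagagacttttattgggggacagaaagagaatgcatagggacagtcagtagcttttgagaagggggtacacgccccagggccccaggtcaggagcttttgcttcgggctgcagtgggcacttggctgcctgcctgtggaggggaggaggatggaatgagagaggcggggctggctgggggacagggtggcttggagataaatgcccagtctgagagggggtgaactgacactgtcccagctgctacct
Eno1: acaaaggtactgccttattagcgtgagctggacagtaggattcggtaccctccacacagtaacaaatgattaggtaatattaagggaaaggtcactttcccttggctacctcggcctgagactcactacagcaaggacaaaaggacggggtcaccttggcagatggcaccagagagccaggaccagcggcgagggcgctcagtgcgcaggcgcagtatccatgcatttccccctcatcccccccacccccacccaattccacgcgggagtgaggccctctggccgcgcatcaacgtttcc

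Lactate dehydrogenase had the widest range of isozyme shares over the 5 stages of all isozyme groups counted here, in each of the 3 libraries. Ldhb, the subunit of the heart form, which is known to favour the oxidation of lactate, had 147, 109 and 112 CPM in DN-like, 314, 182 and 174 in cycling and 1107, 644 and 627 in quiescent DP-like cells in the p53 AD/-, p53-/- and p53+/- libraries. Ldhb had 642, 399.8 and 405 CPM in selected and 142, 91.5 and 79.5 in mature SP-like cells in the p53 AD/-, p53-/- and p53+/- libraries. Ldha, the subunit of the muscle form, which is known to favour the making of lactate, had 394, 272 and 232 CPM in DN-like, 472, 424 and 375 in cycling and 215, 167 and 143 in quiescent DP-like cells in the p53 AD/-, p53-/- and p53+/- libraries. Ldha had 446, 379 and 304 CPM in selected and 529, 407 and 317 in mature SP-like cells in the p53 AD/-, p53-/- and p53+/- libraries. The Ldhb share of the UMIs of the pair was 27.2%, 28.5% and 32.6% in DN-like, 39.9%, 29.97% and 31.7% in cycling and 83.7%, 79.4% and 81.4% in quiescent DP-like cells in the p53 AD/-, p53-/- and p53+/- libraries. Beyond them it was 59.04%, 51.3% and 57.2% in selected cells and 21.2%, 18.4% and 20.1% in mature SP-like cells in the p53 AD/-, p53-/- and p53+/- libraries. The share was highest in quiescent DP-like cells and lowest in mature cells in every library, and the intervals of these stages lay far apart. The selected clusters are given by falling share, and no order of maturation was computed. The share was 74.98%, 71.1% and 74.3% in cluster 3, led by Tox and Ccr9, and 56.8%, 50.6% and 56.2% in cluster 7, led by Ikzf2 and Cd5, in the p53 AD/-, p53-/- and p53+/- libraries. It was 44.2%, 36.1% and 41.4% in cluster 5, led by Tmsb10 and Itm2a, and 37.1%, 33.3% and 33.3% in cluster 13 in the p53 AD/-, p53-/- and p53+/- libraries. In the mature cluster 17, led by H2-D1 and B2m, Ldhb held 9.52%, 13.4% and 10.7% in the p53 AD/-, p53-/- and p53+/- libraries.

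Between libraries the Ldhb share differed less than between stages. In quiescent DP-like cells it was 83.7% (82.9 to 84.5%) in the p53 AD/- library, 79.4% (78.5 to 80.2%) in the p53-/- library and 81.4% (80.7 to 82.2%) in the p53+/- library. In cycling cells it was 39.9% (38.8 to 41.03%) in the p53 AD/- library, 29.97% (29.2 to 30.7%) in the p53-/- library and 31.7% (30.8 to 32.7%) in the p53+/- library. In cycling cells the p53 AD/- over p53+/- log2 ratio of the level was 0.85 (0.77 to 0.92) for Ldhb and 0.33 (0.27 to 0.38) for Ldha. In quiescent DP-like cells the ratios were 0.82 (0.78 to 0.87) for Ldhb and 0.59 (0.49 to 0.69) for Ldha. Ldhb itself was among the 10 leading genes of cluster 4, which holds most p53 AD/- quiescent DP-like cells. Within cluster 4 its level was 1157, 877 and 703 CPM and within cluster 2 it was 917, 586 and 577 CPM in the p53 AD/-, p53-/- and p53+/- libraries. The p53 AD/- library was the highest in each.

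The promoters of this pair are shown because their shares differ so much between stages, in RefSeq windows of 300 bases on GRCm38.p6. The Ldhb window lies at chr6:142507908-142508207 on the minus strand and the Ldha window at chr7:46845554-46845853 on the plus strand. Capitals mark every letter covered by ACGTG or its reverse complement CACGT. The Ldha window holds 5 such matches, of which 4 overlap in pairs as 2 copies of CACGTG, the letters of an E-box that MYC can bind. The Ldhb window holds none. Of 27025 promoters of this length 19.6% hold ACGTG and 7.24% hold CACGTG, and of the 33 members with an entry 14 (42.4%) and 4 (12.1%) do. A match describes letters only.
Ldhb: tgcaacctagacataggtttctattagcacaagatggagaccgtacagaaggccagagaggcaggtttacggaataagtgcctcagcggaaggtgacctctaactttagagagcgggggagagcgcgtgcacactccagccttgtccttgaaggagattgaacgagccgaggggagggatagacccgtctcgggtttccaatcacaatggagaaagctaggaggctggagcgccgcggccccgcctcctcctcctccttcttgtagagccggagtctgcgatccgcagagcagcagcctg
Ldha: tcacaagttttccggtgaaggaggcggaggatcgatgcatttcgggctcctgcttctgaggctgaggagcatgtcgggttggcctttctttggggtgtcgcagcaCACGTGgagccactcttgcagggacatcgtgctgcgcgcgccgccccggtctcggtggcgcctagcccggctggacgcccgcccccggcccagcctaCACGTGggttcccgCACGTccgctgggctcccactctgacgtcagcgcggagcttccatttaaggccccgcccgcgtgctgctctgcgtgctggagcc

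**Figure D2:**
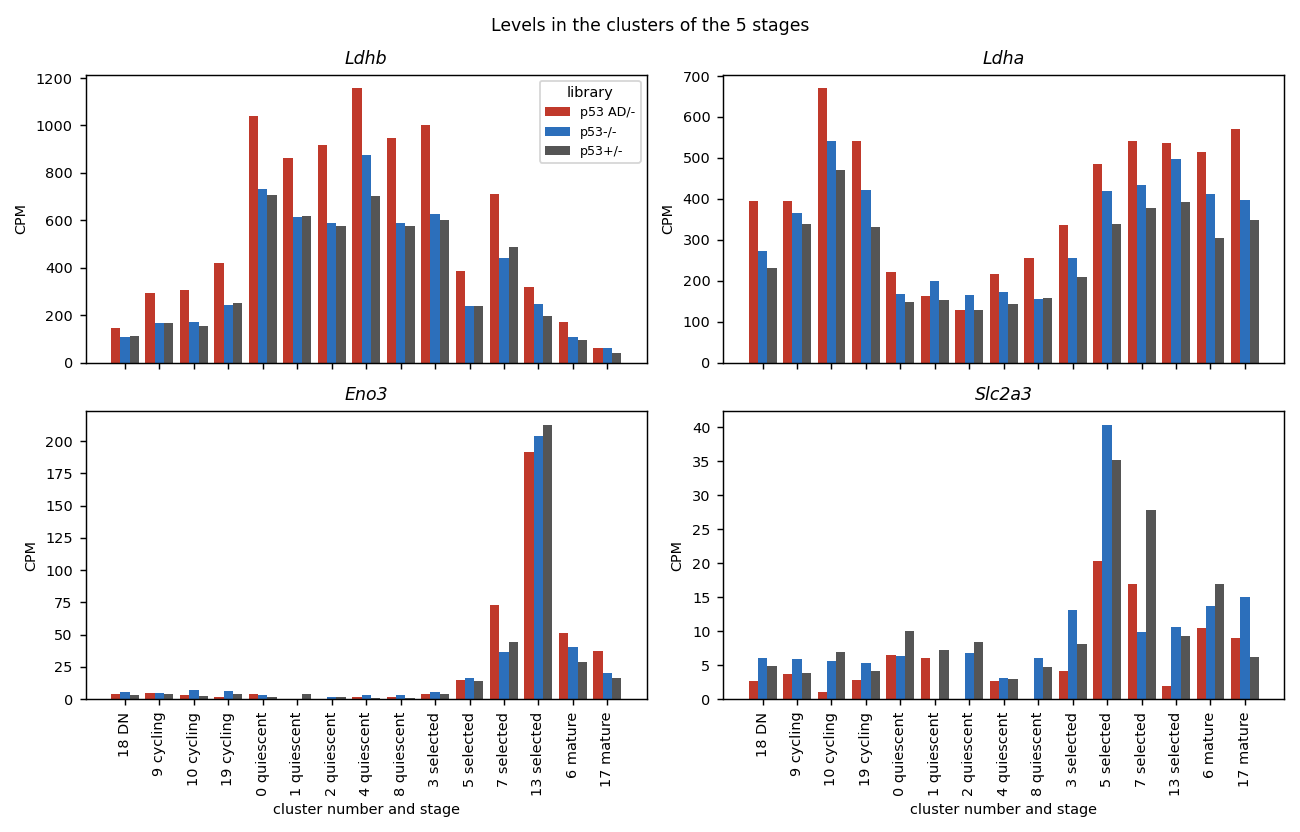
Bars give the CPM of Ldhb, Ldha, Eno3 and Slc2a3 (y axes) in each cluster of the 5 stages (x axes, in the order DN, cycling, quiescent DP, selected, mature), with p53 AD/-, p53-/- and p53+/- bars side by side. Ldhb is high in quiescent clusters and, summed by stage, lower in selected and mature cells, while Eno3 peaks in cluster 13 at 192, 204 and 213 CPM in the p53 AD/-, p53-/- and p53+/- libraries.

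The 5 genes for the entry and decarboxylation of pyruvate had log2 ratios between -0.11 and 0.37 over the 3 pairs of libraries in quiescent DP-like cells, with 0 past 0.5. Across this stage 9.46% of all genes were higher and 18.2% lower by that much for p53 AD/- over p53+/-. The shares were 9.04% and 25.7% for p53 AD/- over p53-/-, and 8.30% and 4.05% for p53-/- over p53+/-, so 0 of 5 is close to the background. Mpc1 and Mpc2 form the pyruvate carrier of the inner membrane. Mpc1 had 108, 107 and 98.96 CPM in DN-like, 120.2, 131 and 133 in cycling and 136, 121 and 119 in quiescent DP-like cells in the p53 AD/-, p53-/- and p53+/- libraries. Mpc1 had 119, 127 and 116 CPM in selected and 88.7, 88.4 and 91.5 in mature SP-like cells in the p53 AD/-, p53-/- and p53+/- libraries. Mpc2 had 166, 127 and 129 CPM in DN-like, 194, 178 and 185 in cycling and 227, 195 and 196 in quiescent DP-like cells in the p53 AD/-, p53-/- and p53+/- libraries. Mpc2 had 192, 156 and 165 CPM in selected and 153, 130.1 and 121 in mature SP-like cells in the p53 AD/-, p53-/- and p53+/- libraries. The Mpc2 share of the pair ranged over the 5 stages and 3 libraries between 54.4 and 63.4%. Pdha1 and Pdhb encode the subunits of the pyruvate-decarboxylating enzyme, and Dlat the acetyltransferase core. Pdha1 stood at 67.6, 88.6 and 93.4 CPM in DN-like, 60.6, 68.5 and 64.9 in cycling and 118, 111 and 102 in quiescent DP-like cells in the p53 AD/-, p53-/- and p53+/- libraries. Pdha1 had 127, 134 and 121 CPM in selected and 90.2, 92.9 and 85.7 in mature SP-like cells in the p53 AD/-, p53-/- and p53+/- libraries. Pdhb stood at 111, 98.5 and 80.97 CPM in DN-like, 92.9, 102 and 76.7 in cycling and 124, 125 and 96.4 in quiescent DP-like cells in the p53 AD/-, p53-/- and p53+/- libraries. Pdhb had 105, 105 and 84.03 CPM in selected and 83.2, 77.8 and 62.1 in mature SP-like cells in the p53 AD/-, p53-/- and p53+/- libraries. Dlat stood at 32.5, 32.7 and 34.6 CPM in DN-like, 31.8, 35.3 and 37.05 in cycling and 28.6, 27.7 and 29.96 in quiescent DP-like cells in the p53 AD/-, p53-/- and p53+/- libraries. Dlat had 25.2, 21.1 and 23.9 CPM in selected and 18.6, 22.03 and 18.3 in mature SP-like cells in the p53 AD/-, p53-/- and p53+/- libraries. Pdha1 was lower in cycling than in quiescent DP-like cells, with log2 ratios of -0.96, -0.70 and -0.65 in the p53 AD/-, p53-/- and p53+/- libraries. A drop past 0.5 was common there, since 51.7, 48.7 and 49.1% of all genes tested had one in these libraries. The medians over all genes were -0.54, -0.47 and -0.48, so the Pdha1 drop is no result of its own. The other 4 genes of pyruvate entry stayed within 0.5 of the quiescent DP-like CPM in cycling cells. Their p53 AD/- over p53+/- ratios in quiescent DP-like cells lay between -0.07 for Dlat and 0.36 for Pdhb.

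The pyruvate dehydrogenase kinases phosphorylate and silence that complex, and their shares differed between stages in all 3 libraries. Pdk1 had 33.8, 45.4 and 51.9 CPM in DN-like, 16.2, 21.96 and 23.2 in cycling and 112, 97.7 and 106 in quiescent DP-like cells in the p53 AD/-, p53-/- and p53+/- libraries. Pdk1 had 67.8, 57.5 and 66.1 CPM in selected and 27.4, 32.2 and 37.2 in mature SP-like cells in the p53 AD/-, p53-/- and p53+/- libraries. Pdk1 was lower in cycling than in quiescent DP-like cells, by log2 ratios of -2.80, -2.15 and -2.19 in the p53 AD/-, p53-/- and p53+/- libraries. Pdk3 ran the other way, with 18.9, 13.8 and 22.1 CPM in DN-like, 25.7, 22.9 and 20.5 in cycling and 13.03, 11.7 and 11.5 in quiescent DP-like cells in the p53 AD/-, p53-/- and p53+/- libraries. Pdk3 had 22.5, 22.2 and 17.2 CPM in selected and 18.6, 21.4 and 19.1 in mature SP-like cells in the p53 AD/-, p53-/- and p53+/- libraries. Pdk2 was sparse, with 6.76, 3.88 and 5.54 CPM in DN-like, 1.62, 2.34 and 1.01 in cycling and 13.7, 8.98 and 9.05 in quiescent DP-like cells in the p53 AD/-, p53-/- and p53+/- libraries. Pdk2 had 3.502, 3.76 and 3.59 CPM in selected and 3.96, 3.80 and 2.004 in mature SP-like cells in the p53 AD/-, p53-/- and p53+/- libraries. Pdk1 and Pdk2 were each highest in quiescent DP-like cells of every library. The Pdk1 share of kinase UMIs was 37.2%, 46.6% and 51.9% in cycling cells and 80.7%, 82.5% and 83.8% in quiescent DP-like cells in the p53 AD/-, p53-/- and p53+/- libraries. For Pdk3 the share in the p53 AD/-, p53-/- and p53+/- libraries was 59.1%, 48.5% and 45.9% in cycling and 9.37%, 9.91% and 9.10% in quiescent DP-like cells. In cycling cells Pdk1 was lower in the p53 AD/- library than in the p53+/- library, with a log2 ratio of -0.52 (-0.80 to -0.25), while in quiescent DP-like cells the ratio was 0.08 (-0.05 to 0.21). Pdk2 in quiescent DP-like cells had p53 AD/- ratios of 0.60 (0.20 to 1.01) over p53+/- and 0.61 (0.20 to 1.03) over p53-/-.

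**Figure D3:**
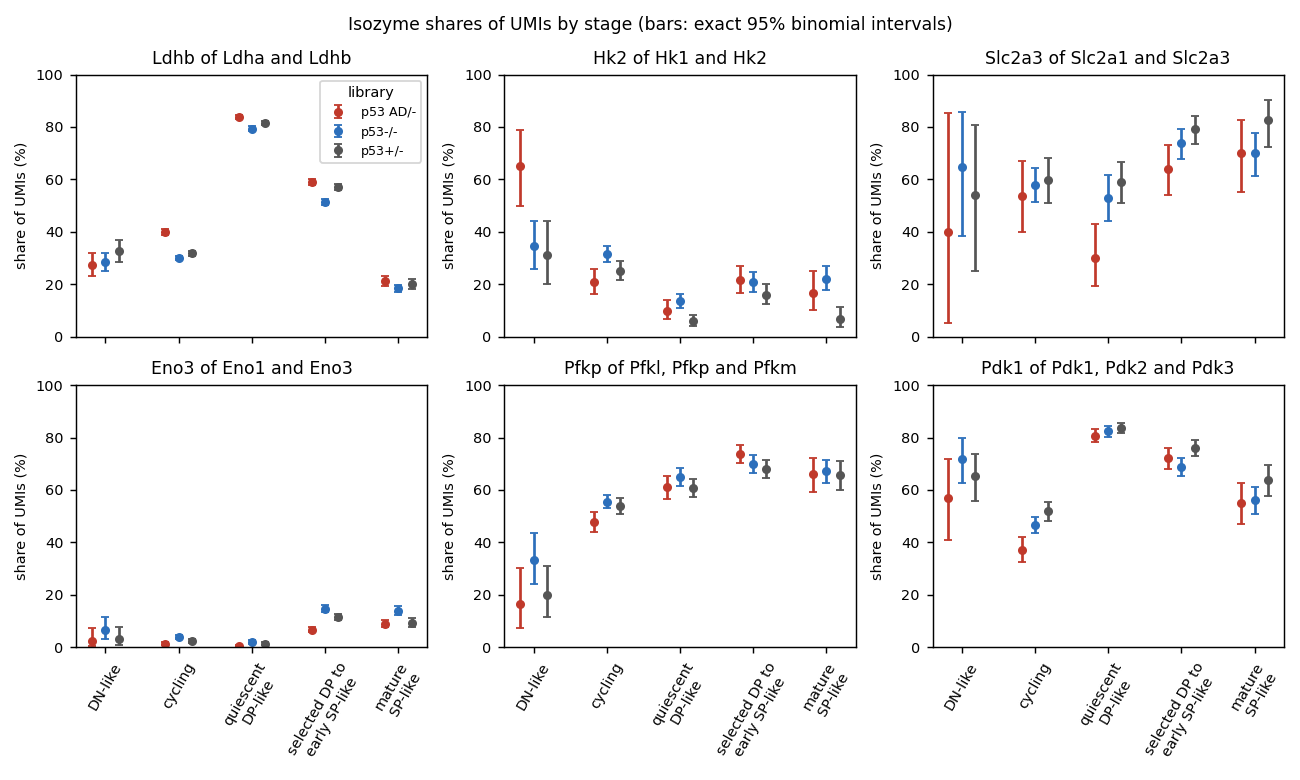
Each panel gives the share (%) of UMIs that 1 isozyme holds among its partners (y axis) at the 5 stages (x axis), with points for the p53 AD/-, p53-/- and p53+/- libraries and bars for exact 95% binomial intervals (counting error only). The Ldhb and Pdk1 shares peak in quiescent DP-like cells, at 83.7%, 79.4% and 81.4% and 80.7%, 82.5% and 83.8% in the p53 AD/-, p53-/- and p53+/- libraries.

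Of the 5 pentose phosphate genes 1, Taldo1, was higher (background 9.46%) and 1, Rpia, was lower (background 18.2%) by 0.5 or more in p53 AD/- over p53+/- quiescent DP-like cells. G6pdx and Pgd carry out the NADPH-making steps. G6pdx was sparse, with 8.12, 13.8 and 14.5 CPM in DN-like, 9.70, 14.5 and 12.03 in cycling and 9.88, 11.6 and 10.2 in quiescent DP-like cells in the p53 AD/-, p53-/- and p53+/- libraries. G6pdx had 11.1, 13.2 and 11.2 CPM in selected and 7.32, 13 and 8.91 in mature SP-like cells in the p53 AD/-, p53-/- and p53+/- libraries. Pgd had 41.9, 25.5 and 24.9 CPM in DN-like, 20, 20.4 and 18.9 in cycling and 22.5, 24.6 and 22 in quiescent DP-like cells in the p53 AD/-, p53-/- and p53+/- libraries. Pgd had 31.7, 26.7 and 25.04 CPM in selected and 24.1, 24.6 and 23.2 in mature SP-like cells in the p53 AD/-, p53-/- and p53+/- libraries. Their log2 ratios between libraries in quiescent DP-like cells lay between -0.23 and 0.18. Taldo1 and Tkt move carbon units between sugar phosphates in the branch that needs no oxidation. Tkt had 285, 176 and 157 CPM in DN-like, 174, 163 and 138 in cycling and 62.3, 54.6 and 46.97 in quiescent DP-like cells in the p53 AD/-, p53-/- and p53+/- libraries. Tkt had 87.2, 75.6 and 65.03 CPM in selected and 128, 102 and 92.4 in mature SP-like cells in the p53 AD/-, p53-/- and p53+/- libraries. Its log2 ratios of cycling over quiescent DP-like cells were 1.48, 1.57 and 1.55 in the p53 AD/-, p53-/- and p53+/- libraries. Taldo1 varied less with stage, with 279, 188 and 164 CPM in DN-like, 288, 226 and 214 in cycling and 323, 223 and 204 in quiescent DP-like cells in the p53 AD/-, p53-/- and p53+/- libraries. Taldo1 had 326, 249 and 236 CPM in selected and 274, 186 and 186 in mature SP-like cells in the p53 AD/-, p53-/- and p53+/- libraries. Ratios of p53 AD/- over p53+/- quiescent DP-like cells were 0.66 (0.58 to 0.74) for Taldo1 and 0.41 (0.23 to 0.59) for Tkt.

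Rpia, the isomerase that makes ribose phosphate, was lower in the p53 AD/- library than in both others at every stage. Its levels were 14.9, 37.6 and 36.7 CPM in DN-like, 15.6, 36.1 and 33.4 in cycling and 14.7, 30.5 and 24.8 in quiescent DP-like cells in the p53 AD/-, p53-/- and p53+/- libraries. Rpia had 18.2, 31.7 and 28.5 CPM in selected and 15.2, 30.6 and 27.8 in mature SP-like cells in the p53 AD/-, p53-/- and p53+/- libraries. The log2 ratio of p53 AD/- in quiescent DP-like cells was -0.75 (-1.09 to -0.43) over p53+/- and -1.05 (-1.38 to -0.73) over p53-/-. For cycling cells these ratios were -1.10 (-1.37 to -0.84) and -1.21 (-1.47 to -0.96). The interval left out 0 at all 5 stages in both pairs, and the ratio was past -0.5 at each.

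Set side by side for quiescent DP-like cells, the pairs of libraries asked whether the genotypes differ in this pathway. In the p53 AD/- library 13 of the 32 members with at least 30 UMIs over the pair were higher than in the p53+/- library by a log2 ratio of 0.5 or more, where 9.46% of 10819 genes were. The 2 members Slc2a3 and Rpia were lower, where 18.2% of genes were. The 13 were 5 of 6 genes of lower glycolysis (Gapdh, Pgk1, Pgam1, Eno1 and Pkm), 4 of 8 of upper glycolysis (Hk2, Gpi1, Aldoa and Tpi1) and 2 of 2 lactate dehydrogenase genes. The rest were 1 of 3 kinases (Pdk2) and 1 of 5 pentose phosphate genes (Taldo1), with 0 of 5 for pyruvate entry and 0 of 3 for transport. The interval of Hk2 included 0. The median log2 ratio of the members tested was 0.30, beside -0.05 over all genes tested. For p53 AD/- over p53-/- cells 10 of 32 were higher (background 9.04%) and 3, Slc2a3, Hk2 and Rpia, were lower (background 25.7%). That pair had a median of 0.19 beside -0.13 over all genes. For p53-/- over p53+/- cells 1 of 32, Hk2, was higher (background 8.30%) and 0 were lower (background 4.05%). That pair had a median of 0.15 beside 0.09. Each library enters 2 of the 3 pairs, so the pairs are not independent.

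**Figure D4:**
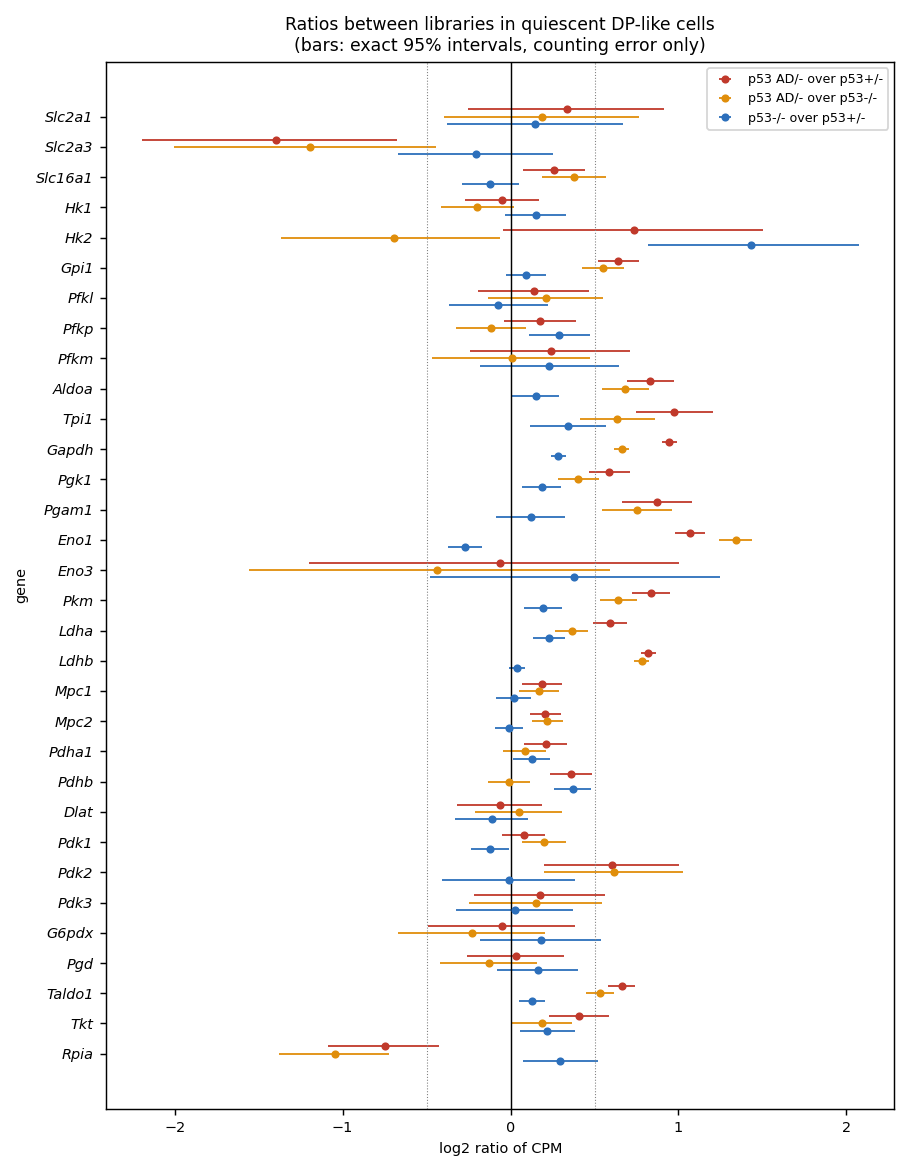
Points give the log2 ratio of CPM (x axis) of each member with at least 30 UMIs (y axis, in pathway order) in quiescent DP-like cells of p53 AD/- over each other library and of p53-/- over p53+/-, with exact 95% intervals (bars). Dotted lines mark 0.5 in each direction. Most p53 AD/- points from Aldoa to Ldhb lie right of 0.5, up to 1.34 for Eno1 over p53-/-, while those of Slc2a3 and Rpia lie left of it.

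The difference was also read against genes of like abundance and length, a comparison added after the data had been seen. The length of a gene was the median over its annotated protein-coding transcripts, short ones included, which gave 581 bases for Hk1 and 773 for Eno1. It may differ from the length of the transcripts in these cells. By this measure the members had a median of 1639 bases. The 10332 genes with the minimum of UMIs over the 3 libraries had 2106 bases. Among genes with at least 1000 UMIs over the pair and transcripts under 2000 bases, 9 of 12 members and 12.2% of 1676 genes were past 0.5 in p53 AD/- over p53+/- cells. The same counts were 7 of 12 members and 9.59% of 1647 genes in p53 AD/- over p53-/- cells. Among those with transcripts of 2000 bases or more, 0 of 4 members and 2.44% of genes were in p53 AD/- over p53+/- cells. Cells matched between libraries on their Malat1 share (2037 from each) had 9 of 31 members for p53 AD/- over p53+/- (background 7.94%) and 5 of 31 members for p53 AD/- over p53-/- (background 7.68%) higher by 0.5 or more. Within cluster 4 alone there were 15 of 29 members for p53 AD/- over p53+/- (background 13.9%) and 9 of 28 members for p53 AD/- over p53-/- (background 13.5%). Cluster 2 alone, with its 84 p53 AD/- cells, gave 11 of 29 members for p53 AD/- over p53+/- (background 20.3%) and 10 of 31 members for p53 AD/- over p53-/- (background 24.2%). Cluster 1 alone, with 172, 224 and 937 cells in the p53 AD/-, p53-/- and p53+/- libraries, gave 3 of 26 members for p53 AD/- over p53+/- (background 17.4%) and 2 of 18 members for p53 AD/- over p53-/-, where 406 of 4062 genes were. Markers of cycling cells in quiescent DP-like cells summed to 235, 426 and 332 CPM in the p53 AD/-, p53-/- and p53+/- libraries, with none of 16 at 0. The part of cycling cells in the member levels was not tested.

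The same pairs were read at the other stages. Under 1% Malat1 was found in 75.5, 28.3 and 32.3% of DN-like cells in the p53 AD/-, p53-/- and p53+/- libraries. In the same order the shares were 59.4, 46.6 and 59.3% in cycling, 18.2, 0.268 and 0.939% in selected and 49.9, 10.95 and 11.9% in mature cells. Counts in cells matched on Malat1 share are not given for these stages, and the part of this difference was not tested. In DN-like cells the members higher and lower by 0.5 or more were 13 and 2 of 25 for p53 AD/- over p53+/- (background 15.8 and 29.8%). They were 13 and 4 of 27 for p53 AD/- over p53-/- (background 12.3 and 32.4%) and 2 and 1 of 27 for p53-/- over p53+/- (background 9.91 and 7.05%). In cycling cells the members higher and lower by 0.5 or more were 6 and 3 of 32 for p53 AD/- over p53+/- (background 6.65 and 21.2%). They were 3 and 7 of 32 for p53 AD/- over p53-/- (background 5.01 and 29.3%) and 3 and 0 of 32 for p53-/- over p53+/- (background 6.97 and 2.60%). In selected cells the members higher and lower by 0.5 or more were 11 and 2 of 33 for p53 AD/- over p53+/- (background 7.83 and 16.9%). They were 5 and 2 of 33 for p53 AD/- over p53-/- (background 6.89 and 22.8%) and 1 and 0 of 33 for p53-/- over p53+/- (background 8.19 and 4.21%). In mature SP-like cells the members higher and lower by 0.5 or more were 13 and 2 of 29 for p53 AD/- over p53+/- (background 11.4 and 19.4%). They were 9 and 6 of 32 for p53 AD/- over p53-/- (background 7.88 and 26.9%) and 5 and 0 of 32 for p53-/- over p53+/- (background 11.1 and 3.87%). Some of these counts depend on the scaling. The backgrounds above are for CPM, and no share of all genes past 0.5 is given for other factors. Such factors shift all genes of a pair alike, so a larger count with them is not a stronger result about the members. With TMM factors (trimmed means of log ratios, edgeR) over all 15 stage and library sums, the cycling counts were 11 and 1 for p53 AD/- over p53+/- and 9 and 3 for p53 AD/- over p53-/-. With median-of-ratios factors they were 9 and 2 and 9 and 3, so the p53 AD/- over p53-/- balance in cycling cells turns with the scaling. TMM moved the median of all genes by 0.16 and 0.24 in these pairs. In selected cells the p53 AD/- over p53-/- counts were 8 and 2 with TMM and 10 and 2 with median-of-ratios factors. In mature cells they were 11 and 4 with both, and 7 and 8 when Malat1, mitochondrial and ribosomal UMIs were left out of the total. In DN-like cells median-of-ratios factors gave 17 and 1 for p53 AD/- over p53+/-.

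Of the 25 members with enough UMIs at all 5 stages, 4 were past 0.5 at each stage in p53 AD/- over p53+/- cells, Aldoa, Gapdh, Eno1 and Pkm (background 1.67%), and 1, Rpia, was past -0.5 at each (background 3.98%). For p53 AD/- over p53-/- cells, of 27 members Gapdh and Eno1 were higher at each stage (background 0.889%) and Rpia was lower (background 8.76%). For p53-/- over p53+/- cells 1 member, Hk2, was past 0.5 at each stage among 27 members (background 0.619%). Others were past 0.5 at 1 or more stages, among them Slc2a1, Pfkp and Pdk2. The Eno1 ratio over p53+/- ranged over the stages between 0.78 and 1.07, and that over p53-/- between 0.90 and 1.34.

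**Figure D5:**
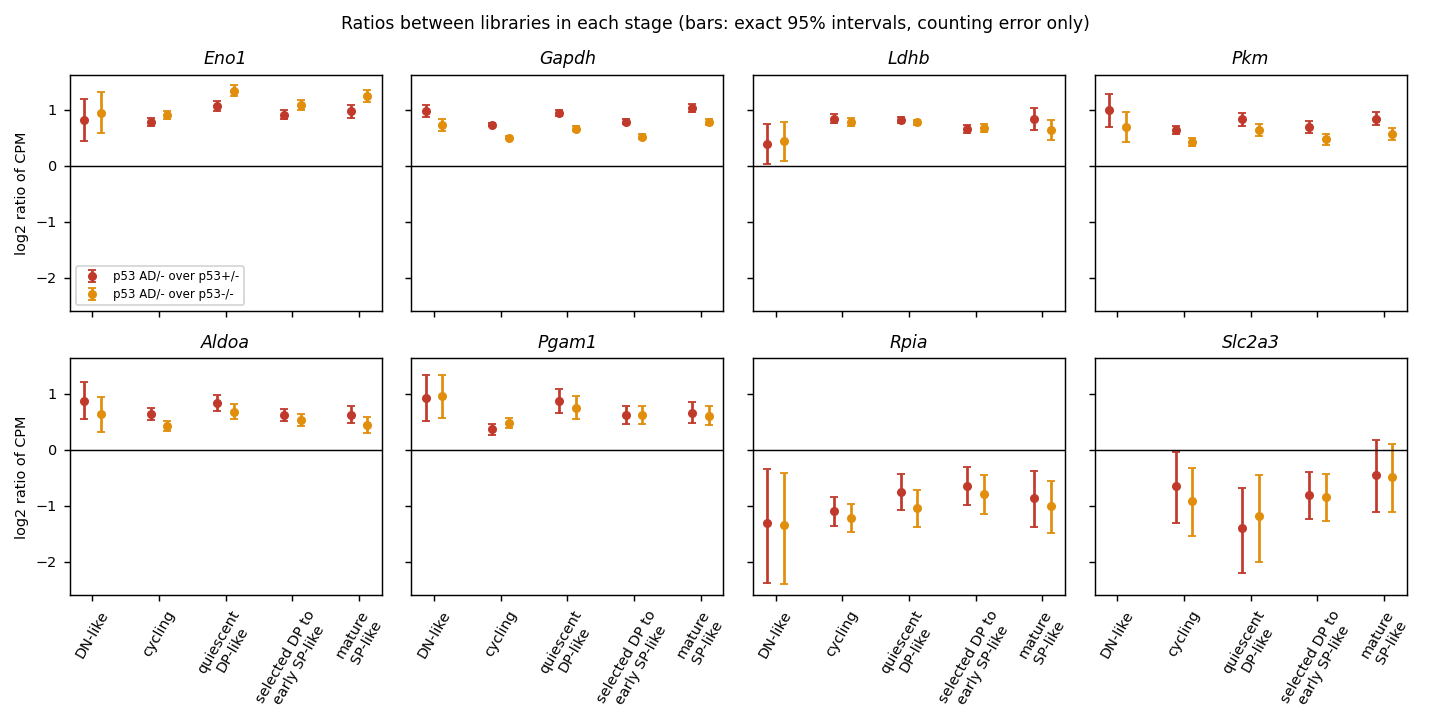
Log2 ratios of CPM (y axis) of 8 members for p53 AD/- over each other library at the 5 stages (x axis), with exact 95% intervals (counting error only). Eno1, Gapdh, Ldhb, Pkm, Aldoa and Pgam1 lie above 0 and Rpia below 0 at every stage, while the Slc2a3 intervals in mature cells include 0. Slc2a3 has no point in DN-like cells, where it was under 30 UMIs.

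Stages were compared within each library. Against quiescent DP-like cells, cycling cells had higher Pfkl, Tpi1, Gapdh, Pgk1, Pgam1, Eno3, Pkm, Ldha, Pdk3 and Tkt and lower Hk1, Ldhb, Pdha1, Pdk1 and Pdk2, each past 0.5 in all 3 libraries. Counted over the members tested, 10 of 32 members were higher in the p53 AD/- library (background 17.4%) and 7 were lower (background 51.7%). In turn 13 of 32 members were higher in the p53-/- library (background 19.9%) and 5 were lower (background 48.7%). Likewise 12 of 32 members were higher in the p53+/- library (background 19.7%) and 8 were lower (background 49.1%). The member medians were 0.03, 0.27 and 0.19 in the p53 AD/-, p53-/- and p53+/- libraries, beside -0.54, -0.47 and -0.48 over all genes tested. TMM factors computed over the sums of the cycling and quiescent DP-like stages alone moved the median of all genes by 0.51, 0.55 and 0.49 and the counts of higher members to 16, 20 and 20 in the p53 AD/-, p53-/- and p53+/- libraries. Over all 15 stage and library sums the shifts were 0.43, 0.31 and 0.31, with 16, 17 and 16 members higher and 5, 3 and 3 lower. Median-of-ratios factors over the 15 sums gave 16, 18 and 18 higher in the p53 AD/-, p53-/- and p53+/- libraries. The backgrounds given here are for CPM, and no share of all genes past 0.5 is given for the other factors. Such factors shift all genes alike, so the larger counts are not a stronger result about the members. Among DN-like cells 13 of 30 members were higher in the p53 AD/- library (background 20.1%) and 9 were lower (background 45.9%). In turn 12 of 32 members were higher in the p53-/- library (background 22.4%) and 8 were lower (background 41.8%). Likewise 12 of 31 members were higher in the p53+/- library (background 22.6%) and 8 were lower (background 37.7%). With TMM factors over the 15 sums 13, 12 and 12 were higher and 9, 5 and 8 lower in the p53 AD/-, p53-/- and p53+/- libraries. Among the members past 1 in all 3 libraries, Hk2 had ratios of 3.29, 1.68 and 2.40 and Tpi1 of 2.07, 2.05 and 2.39 in the p53 AD/-, p53-/- and p53+/- libraries.

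Selected and mature cells were set against the same stage. Against quiescent DP-like cells, in selected cells 11 of 32 members were higher in the p53 AD/- library (background 14.2%) and 5 were lower (background 21.0%). In turn 13 of 33 members were higher in the p53-/- library (background 14.6%) and 4 were lower (background 21.7%). Likewise 13 of 32 members were higher in the p53+/- library (background 13.8%) and 4 were lower (background 20.2%). The medians were 0.24, 0.29 and 0.27 in the p53 AD/-, p53-/- and p53+/- libraries, beside -0.10, -0.11 and -0.10 over all genes. Eno3 had log2 ratios of 4.42, 4.18 and 4.30 in the p53 AD/-, p53-/- and p53+/- libraries, and Pgam1, Aldoa and Ldha were past 1 in all 3 libraries. Among mature SP-like cells 12 of 32 members were higher in the p53 AD/- library (background 17.7%) and 10 were lower (background 45.1%). In turn 13 of 32 members were higher in the p53-/- library (background 19.2%) and 7 were lower (background 42.8%). Likewise 12 of 32 members were higher in the p53+/- library (background 17.9%) and 9 were lower (background 44.2%). TMM factors over the 15 sums gave 15, 15 and 16 higher and 5, 4 and 6 lower in the p53 AD/-, p53-/- and p53+/- libraries, with shifts of 0.30, 0.28 and 0.29 in the median of all genes. Median-of-ratios factors gave 15, 16 and 17 higher and 5, 4 and 5 lower in the p53 AD/-, p53-/- and p53+/- libraries. No background is given for either kind of factor. Ldhb had the ratios -2.96, -2.82 and -2.98 and Ldha 1.30, 1.28 and 1.15 in the p53 AD/-, p53-/- and p53+/- libraries, and Slc16a1 and Pdk1 were lower as well. The 16 cycling markers summed to 1887, 2157 and 1547 CPM in mature SP-like and 235, 426 and 332 CPM in quiescent DP-like cells of these libraries. The part of cycling cells in the mature levels was not tested. Between mature and selected cells the largest ratio in every library was that of Ldhb, with log2 ratios of mature over selected cells of -2.18, -2.13 and -2.35 in the p53 AD/-, p53-/- and p53+/- libraries.

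The rest of the pathway was taken from lists of named pathway genes, with 5 to 18 genes tested per list in quiescent DP-like cells. Past a log2 ratio of 0.5 among other glycolysis genes were 0 higher and 3 lower of 9 for p53 AD/- over p53+/- and 1 and 2 of 9 for p53 AD/- over p53-/-. Among other transporters and their partners there were 1 higher and 0 lower of 5 for p53 AD/- over p53+/- and 1 and 1 of 5 for p53 AD/- over p53-/-. The other pyruvate genes had 0 higher and 0 lower of 6 for p53 AD/- over p53+/- and 0 and 1 of 6 for p53 AD/- over p53-/-. For other pentose phosphate genes the counts were 0 higher and 1 lower of 7 for p53 AD/- over p53+/- and 0 and 1 of 7 for p53 AD/- over p53-/-. Regulators such as Hif1a and Myc had 1 higher and 3 lower of 18 for p53 AD/- over p53+/- and 0 and 3 of 18 for p53 AD/- over p53-/-. Hypoxia-inducible factor targets outside glycolysis had 0 higher and 1 lower of 12 for p53 AD/- over p53+/- and 1 and 1 of 12 for p53 AD/- over p53-/-. The backgrounds were 9.46% higher and 18.2% lower for p53 AD/- over p53+/- and 9.04% and 25.7% for p53 AD/- over p53-/-. In lists this short, 0 or 1 higher is close to the background, and no list had more than 3 lower. These counts are therefore no result about the lists. By the rule for these lists 2 genes are named. Ldhd, a mitochondrial dehydrogenase of D-lactate, had 6.87, 13.6 and 14.3 CPM in the p53 AD/-, p53-/- and p53+/- libraries and a log2 ratio of -1.05 (-1.54 to -0.59) for p53 AD/- over p53+/-. Pfkfb4, which sets the level of an activator of phosphofructokinase, had 3.01, 8.63 and 6.09 CPM in the p53 AD/-, p53-/- and p53+/- libraries, with p53 AD/- ratios of -1.52 (-2.27 to -0.83) over p53-/- and -1.02 (-1.79 to -0.31) over p53+/-. Bsg, the partner protein of the Slc16 lactate carriers, chosen after its values were seen, had 183, 121 and 118 CPM in the p53 AD/-, p53-/- and p53+/- libraries, with a p53 AD/- over p53+/- ratio of 0.63 (0.52 to 0.74).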

How the data were processed

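The authors deposited raw UMI counts per gene and barcode for 3 thymus libraries, which per the file headers came from Cell Ranger 4.0.0. The genome was GRCm38, per the submitters' processing notes. Annotation release, chemistry, strand and treatment of shared reads were not given in the sources used here. The other deposited files hold barcodes and gene names. The members and lists were chosen with earlier results of these data known.

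Barcodes with at least 500 genes and under 10% mitochondrial UMIs were kept (23864 of 25077). Each cell was scaled to 10000 UMIs and put on a log scale. All libraries were clustered jointly in scanpy 1.11.5 with no integration and with the 34 members left out, on 2000 variable genes, 30 components, 15 neighbours and Leiden resolution 1. Clusters were named where at least 3 fixed markers were each detected in 5% of cells and some led the 10 top genes. Scrublet called 2 of 25077 barcodes, so its calls were not used and no doublets were removed. The library pairs shared 15, 29 and 21 barcodes.

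UMIs were summed per stage and library and given as CPM. Ratios needed at least 30 UMIs over the pair and used 3 UMIs in place of a count below 3. Intervals are exact 95% Poisson, Clopper-Pearson or conditional binomial (scipy 1.17.1). Members with at least 100 UMIs in quiescent DP-like cells and their isozymes were given in every stage. Of the other lists, genes with at least 100 UMIs and a log2 ratio of 1 or more were named, at most 3 per direction and pair. The arithmetic was run on simulated Poisson counts in which 200 genes changed by a log2 ratio of 1, with no variation between animals, libraries or cells. For p53 AD/- over p53+/-, over 10819 genes, intervals covered 95.5% of unchanged genes, and 98.0% of changed and 4.86% of unchanged genes passed. Coverage near 95% was built into such counts. These shares describe counting error only and are no error rate for differences between genotypes. Alternatives covered cell filters, clustering, scaling (edgeR 4.0.16, R 4.3.3), cells matched on Malat1 share in bins of 0.5%, and the ratio counted. Transcript lengths are medians over the protein-coding transcripts of each gene in the GENCODE M21 annotation, and promoters come from RefSeq on GRCm38.p6. Of the 34 members 33 had a promoter entry, and Slc2a3 had none.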

Additional observations from a re-analysis of the deposited data

Results flagged for a closer look

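Eno3, the muscle enolase gene, had opposite p53 AD/- over p53-/- ratios at different stages. The log2 ratio was 0.51 in mature SP-like cells and -0.60 in cycling cells, a difference of 1.11, and with CPM each interval left out 0. The cycling value rests on 38 and 137 UMIs in the p53 AD/- and p53-/- libraries, and the mature value on 155 and 210. TMM factors shift all genes of this pair by 0.24 in cycling and 0.14 in mature cells, so each ratio depends on the scaling. No interval is given with those factors. Eno3 stands here because the libraries differed in opposite directions at these stages, and the difference itself was not tested.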

How the results depend on the processing

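No paired analysis was possible because each genotype has 1 library. Of 2060 alternative values for 93 ratios of 31 members, 1742 moved by less than their interval, 310 moved by more than that, and 8 alternative values of 5 ratios past 0.5 had the opposite sign. All 8 came from taking 1 cluster of the quiescent DP-like stage alone, a choice made after seeing the data. For p53 AD/- over p53+/- these were Gpi1 in cluster 1 (-0.028) and cluster 2 (-0.00897). For p53 AD/- over p53-/- they were Gpi1 in clusters 0 (-0.00902) and 2 (-0.032), Tpi1 in clusters 1 (-0.95) and 4 (-0.015), Pkm in cluster 1 (-0.10) and Pdk2 in cluster 4 (-0.18). The cause was not tested.

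The 13 members higher in p53 AD/- over p53+/- became 1 at a log2 ratio of 1 or more and 3 of 26 in cluster 1 (background 17.4%). The 10 for p53 AD/- over p53-/- became 5 of 31 in Malat1-matched cells (background 7.68%). In cluster 8 they became 5 of 22 (background 8.19%), and over all filtered cells 4 (background 10.5%). In cluster 1 they became 2 of 18, where 406 of 4062 genes were higher by 0.5 or more. At a log2 ratio of 1 or more 1 was left, and no background is given for that ratio. The 1 for p53-/- over p53+/- became 7 of 24 in cluster 4 (background 16.7%). It became 2 of 31 with Malat1 matching (background 9.11%) and 2 of 25 in cluster 8 (background 14.3%). In cluster 1 it became 2 of 26, where 1203 of 7524 genes were higher by 0.5 or more. It was also 2 under 5% mitochondrial UMIs, at Leiden resolution 0.5 and 2, and with more variable genes. The same count came with members allowed in or cycle genes left out of clustering and with each library clustered alone. It came too without the highest Scrublet scores and with mean CPM over cells. No background is given for these settings. The member medians kept their sign under every alternative run, while the medians of all genes changed sign in some. TMM factors moved the median of all genes by 0.13 for p53 AD/- over p53-/- quiescent DP-like cells. For cycling over quiescent DP-like cells the counts became 16, 20 and 20 with TMM factors in the p53 AD/-, p53-/- and p53+/- libraries, 17 in p53 AD/- and 20 in p53+/- with median-of-ratios factors, and 6 in p53 AD/- and 7 in p53-/- at a log2 ratio of 1 or more. These factors were computed over the sums of the 2 stages. Over all 15 stage and library sums, a choice added after seeing the data, the counts were 16, 17 and 16 with TMM and 16, 18 and 18 with median-of-ratios factors. Both kinds of factor shift all genes, and no background is given for them. The Ldhb share over all filtered cells was 57.9, 46.3 and 54.1% in the p53 AD/-, p53-/- and p53+/- libraries. It was 82.3% in p53 AD/- at Leiden resolution 2, and in p53-/- it was 78.4% under 5% mitochondrial UMIs, 78.2% with each library clustered alone and 80.2% as mean CPM over cells. Low counts limit Slc2a3, Hk2, Pdk2, Slc16a3 and Aldoc.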
